A study of Mus musculus with 12 samples.

Results

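The 483 circular RNAs (circRNAs) described here are those with at least 60 back-splice junction reads summed over 12 libraries of mouse basolateral amygdala, out of 13957 circRNAs in the deposited table (3.46%). Circles of Cdr1 and Homer1 were left out by name, which removed 2 circles above the threshold. The members came from 379 host gene names, and 464 of them, from 363 host genes, had a host mRNA found once in the gene-level table, always at a mean of 0.5 FPKM (fragments of a gene, scaled to transcript length and to library size) or more. They held 74582 of 180744 junction reads (41.3%), with a median of 93 reads per circle (quartiles 73 and 152) and a maximum of 4315. The members were chosen by their read totals over all 12 libraries, which are therefore given as a description. Just inside the threshold stood circles of Anks1b and Fam208a with 60 reads each, and just outside it circles of Kansl1 and Kat6b with 59 each.

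Each group held 3 mice aged 10 weeks. The control group went through the conditioning session without foot shock. The F group received fear conditioning with shock, and tissue of both was taken 1 h after that session. The E group (extinction) and the RE group (retrieval followed by extinction) were conditioned in the same way and were sampled 1 h after their last extinction session on a later day, so that treatment and day cannot be told apart when E or RE is set against the other groups. The p-values measure the spread between these 12 libraries, 1 per mouse. Junction reads ranged from 7324 (E 1) to 23446 (control 1) per library, and mRNA fragments from 7653921 to 23167366 in the same libraries.

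A circRNA forms when the spliceosome joins the end of an exon back to the start of an upstream exon, which leaves a closed ring without cap or tail. Rings lack the free ends that exonucleases attack, so they turn over slowly, and they are known to accumulate in neurons and to come often from genes of the synapse. Because ring and linear mRNA are spliced from the same precursor, the level of the host mRNA is the natural reference for a circle. A read over the back-splice junction is counted here as a read of the ring, since the linear mRNA lacks that order of sequence. The study describes no treatment that removes linear RNA, so the rings were not tested for directly.

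The junctions of the 10 circles with most reads are printed first, followed by those of the circles whose host mRNA or own reads are taken up in the comparison of RE with E. Each run shows the last 15 bases of the circle in lower case followed by its first 15 bases in capitals, 5′ to 3′ on the host strand, read from the GRCm38 (mm10) reference sequence. On the host strand of the genome the parts in capitals lie upstream of those in lower case.
Tulp4, chr17:6137211-6139156, plus strand: ggccacaacagtgagAGTTGTAAGAGTCCA
Ankib1, chr5:3747021-3772787, minus strand: tgcttcgagctcacgAATGTGAAACATGTT
Unc79, chr12:102991350-103021876, plus strand: gcttacagtacacagTTGCTTCCAAGATCC
Strbp, chr2:37580673-37647285, minus strand: tctcagtattcaaagGTGTATTCCAGAGAA
Ssbp2, chr13:91524585-91564694, plus strand: gccttccatgattatGTTAGCACTCTACGT
Fat3, chr9:16374949-16378254, minus strand: tagatgatgagagtgGACGGACATGTGATA
Rnf169, chr7:99935162-99955540, minus strand: agcgttcctggcaggAGTTTATATTCAGAA
Tlk1, chr2:70770004-70786995, minus strand: gacaaagaatcagagGTGCAATGGATGAGC
Ankrd12, chr17:66024076-66053091, minus strand: atgaaagttatacagATCCAGGATGAGAAG
Glcci1, chr6:8537817-8582790, plus strand: atgatcgtgataaagTGGACAGGCCAAAAT
Nfix, chr8:84771784-84772315, minus strand: ttgtccacactccggGATGAGTTCCACCCG
Satb1, chr17:51767892-51809287, minus strand: gccacaaaaagccagTTCTGGCAGGTGATC
Kcnt2 longer, chr1:140362949-140450304, plus strand: acatcaaatttgcagGTCTCACATATTTTG
Kcnt2 shorter, chr1:140362949-140383095, plus strand: ccttatcttcacttgGTCTCACATATTTTG
Robo1, chr16:72933213-72935786, plus strand: ctttgacagttcaagATACGAGGAGGAAAA
Ntng2, chr2:29227578-29248878, minus strand: cgaagtcattggcagGTGCTGCTGCTAATG
The Kcnt2 circles share their capitals, since both begin at the same acceptor and differ in the donor that is joined to it.

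All 483 circles had AG just before their first base and GT just after their last base on the host strand, the dinucleotides of ordinary splice sites. Of the other 2758 circRNAs with at least 10 reads, 99.7% had both. Both ends met exon ends of a single GENCODE M21 transcript for 445 members (92.1%, against 89.2% of the others). The authors' table classed 448 members as exonic, 31 as sense overlapping and 4 as intronic, and 471 carried a circBase or literature identifier.

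The abundant circles began most often at the second exon of the host transcript. Exon 2 was the first exon in 215 of the 445 placed members (48.3%), against 34.3% of the less abundant circles. Among the 10 circles with most reads, 8 could be placed on a transcript, and 8 of these 8 began at exon 2. They were short after splicing, with a median of 586 nucleotides and 4 exons (570 nucleotides and 4 exons in the others), while 10.8% of members against 6.30% of the others consisted of a single exon. The introns beside them were longer, with a median of 18939 nucleotides upstream and 17502 downstream, against 13584 and 10889. Coding exons alone made up 328 members, and 100 held the start codon together with 5′ UTR. These features are counted over circles that in part share a host, and no test was made of them. The motif ACTAAC, a form of the site bound by the splicing regulator Qk, was found within 200 bases outside either end on the host strand at 6.63% of members and 7.03% of the others, and on the opposite strand at 9.32% and 8.67%.

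Hosts were also counted on lists drawn up by function. The lists are partial and hold none of Ankib1, Ttc3, Strbp, Lin28b, Tlk1, Lrrk2 and Pak7, hosts of members described in other paragraphs, so the counts describe the lists and not the makeup of all members. On the chromatin and transcription list, 20 of 43 genes hosted 29 members with 9005 reads, of which 4315 were of the Tulp4 circle, whose host belongs to the tubby family. From the presynaptic list, 6 of 22 genes (Cadps, Erc2, Pclo, Rims1, Rims2 and Sv2b, all of the vesicle release machinery) hosted 13 members with 2592 reads. Postsynaptic scaffolds and receptors gave 13 members from 9 of 24 genes, among them the glutamate receptors Grin2b and Grm5 and the adhesion molecules Nlgn1 and Nrxn3. The kinase list gave 13 members from 10 of 24 genes, ion channels and exchangers 11 from 8 of 22, the list of the ubiquitin pathway 6 from 5 of 28 and that of RNA-binding proteins 3 from 3 of 20.

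The 10 circles with most reads carried 16.7% of the reads of all members. The Tulp4 circle led with 628, 340 and 284 junction reads in control 1 to 3, with 490, 292 and 216 in F 1 to 3, with 190, 443 and 312 in E 1 to 3 and with 361, 373 and 386 in RE 3 to 5. The authors list it as intronic and its ends met no pair of exon ends in one annotated transcript. Divided by the mRNA fragments of the same library, these counts came to 25.2 ± 3.3 junction reads per 1000000 mRNA fragments (JPM) in control, 23.1 ± 3.2 in F, 25.6 ± 2.0 in E and 27.9 ± 2.4 in RE (SD, n = 3 each). The 4 groups overlapped, and the coefficient of variation over the 12 libraries was 11.6%, the lowest of the 10. Its host mRNA was at 113 FPKM on average, with a coefficient of variation of 16.6%.

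Ankib1 encodes a RING-between-RING ubiquitin ligase, and its circle of exons 2 to 5 gave 9.58, 10.9 and 10.7 JPM in control, 6.50, 7.45 and 6.45 in F, 7.32, 7.02 and 9.18 in E and 8.98, 8.46 and 7.65 in RE. All control libraries lay above all others, while the host mRNA overlapped between all groups, at 12.7 ± 0.99 FPKM in control, 11.9 ± 1.0 in F, 12 ± 2.3 in E and 12.4 ± 2.2 in RE (SD, n = 3 each). The circle of Unc79, a subunit of the NALCN sodium leak channel complex, gave 9.58, 9.17 and 8.41 JPM in control, 5.60, 5.59 and 6.18 in F, 10.1, 7.77 and 8.02 in E and 10.5, 6.02 and 7.50 in RE. Its F libraries were below all control and E libraries but reached into the range of RE, and its host mRNA stayed between 24 and 29.5 FPKM. The circle of Strbp, a protein that binds double-stranded RNA, ran the other way, with 5.48, 4.94 and 4.43 JPM in control against 7.24, 5.59 and 7.73 in F, 5.88, 7.52 and 6.79 in E and 10.4, 8.19 and 7.50 in RE. The control libraries were below all others.

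None of these differences passed the test. With edgeR's quasi-likelihood test, which scales each library by its own circRNA reads, F against control gave a log2 fold change of -0.40 ± 0.27 (SE) for Ankib1, -0.45 ± 0.27 for Unc79 and 0.65 ± 0.28 for Strbp. Over the 4 groups the unadjusted p was 0.278, 0.349 and 0.070, with an adjusted p of 0.999 for each in edgeR's test. The other circles of the 10 were those of Ssbp2 (a cofactor of LIM-domain transcription factors), Fat3 (an atypical cadherin), Rnf169 (a reader of ubiquitin at DNA breaks), Tlk1 (a kinase of a histone chaperone), Ankrd12 (a transcriptional cofactor) and Glcci1 (a transcript induced by glucocorticoids). Their adjusted p over the 4 groups was 0.999 each in edgeR's test, and the largest coefficient of variation was 37.6%, for Glcci1.

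**Figure D1:**
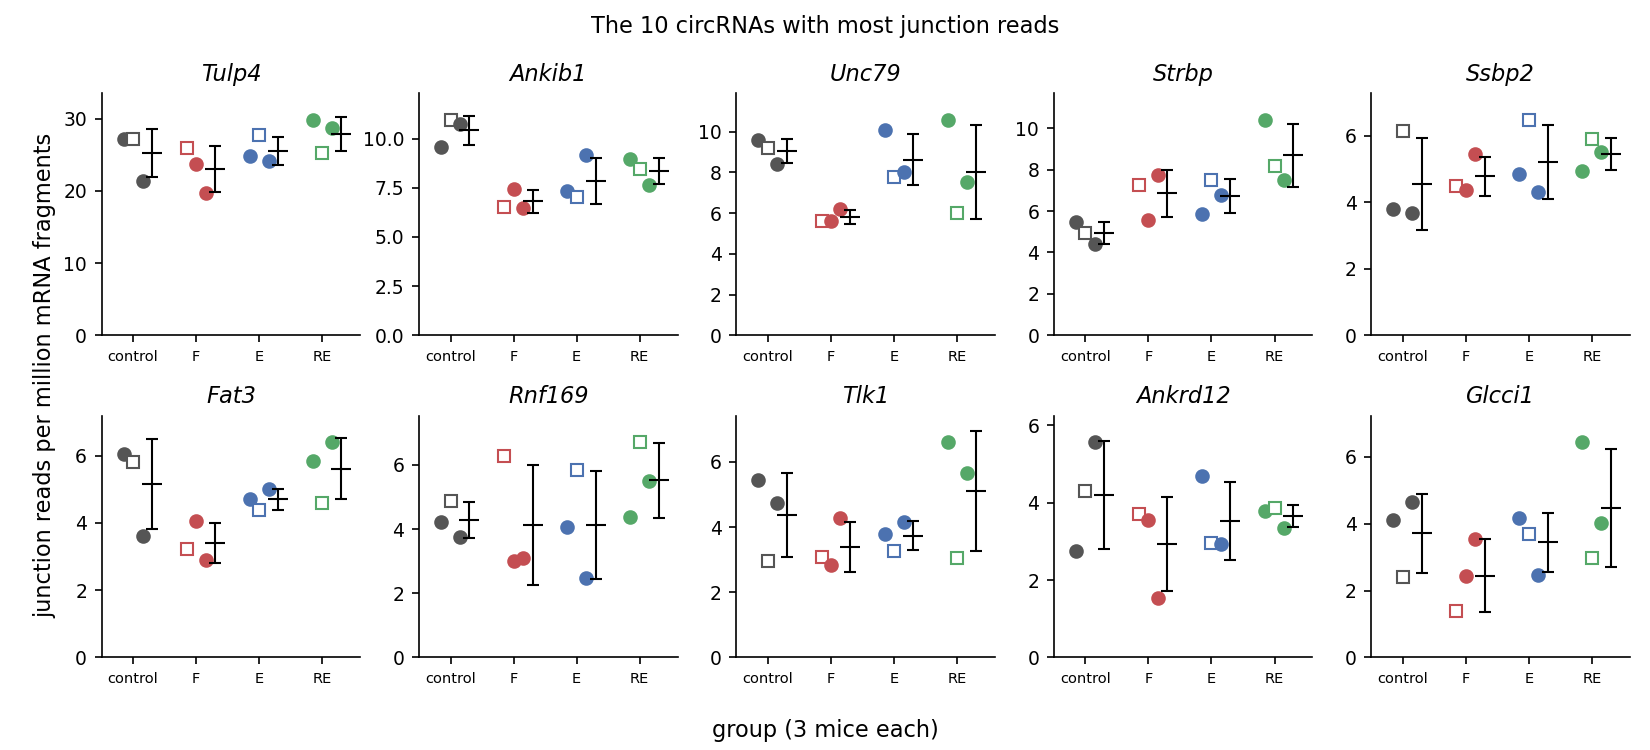
Junction reads per 1000000 mRNA fragments (vertical axes, from 0) of the 10 circles with most reads, by group (horizontal axes). Each point is 1 library, open squares are control 2, F 1, E 2 and RE 4, and the bar with caps is the mean ± SD of 3. The Tulp4 groups overlap, the Ankib1 control points lie above all others and the Strbp control points below all others.

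Circle and host levels were close to unrelated across the members. Over 464 circles, Pearson's r between log2 circle JPM and log2 host FPKM was 0.17 (Spearman's rho 0.11). The circles share libraries and in part hosts, and the threshold on reads cuts the range of circle levels from below. The quartiles of host level were 13.2 and 45.9 FPKM around a median of 25 FPKM, above the median of 9.37 of the 13517 mRNAs at 0.5 FPKM or more.

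Dividing each circle's mean JPM by its host FPKM gave a circle-to-host value with a median of 0.0263 and a 5th to 95th percentile range of 0.00485 to 0.132. The value ranks circles by their yield relative to host FPKM and is not a molar ratio. The libraries were rRNA-depleted, so host FPKM, here and below, can include reads from the exons of the circles. That part was not measured. The highest was Ankib1 at 0.682, followed by Cdc14b (a phosphatase of the cell cycle) at 0.435, Unc79 at 0.291, Lin28b (an RNA-binding protein that blocks let-7 maturation) at 0.264 and Acer3 (an alkaline ceramidase) at 0.227. The Lin28b host mRNA was at 1.89 FPKM, the lowest of all hosts, whereas its circle had 82 reads. At the other end stood a circle of the postsynaptic protein Anks1b at 0.00224, the scaffold Ank3 (ankyrin-G) at 0.00173, the ubiquitin ligase Ttc3 at 0.00161 and the phosphoprotein Arpp21 at 0.00115. Their hosts were among the most abundant mRNAs, with 417 FPKM for Arpp21 and 306 FPKM for Ttc3.

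**Figure D2:**
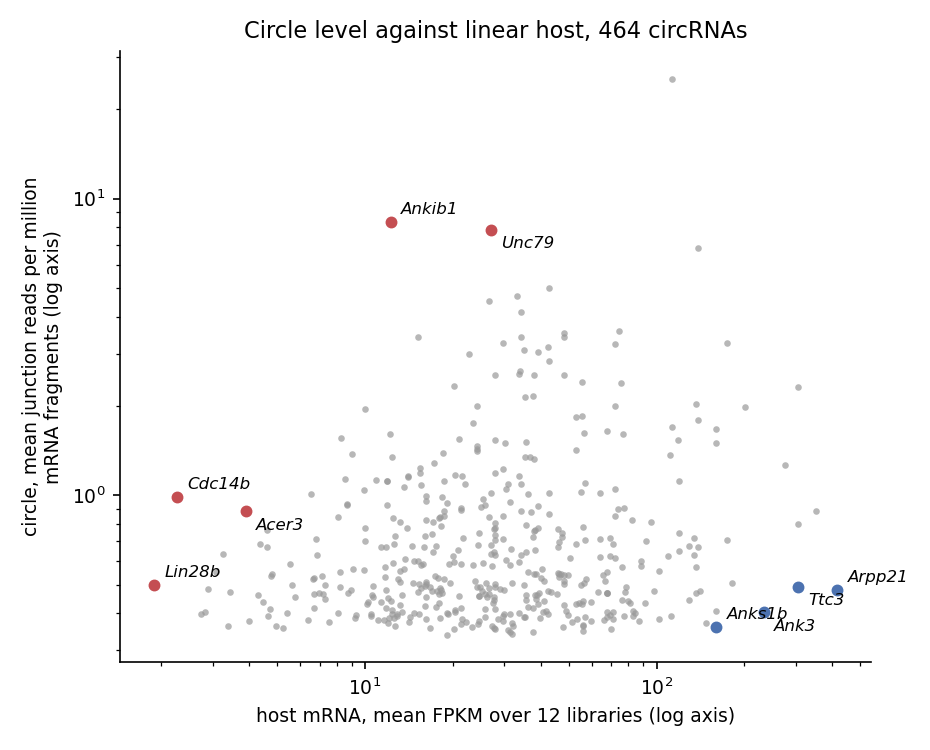
Mean circle level in JPM (vertical log axis) against mean host FPKM (horizontal log axis) over 12 libraries for 464 circles, 1 point each. The 5 circles with the highest circle-to-host values are red and the 4 lowest blue. The points form a broad cloud with r = 0.17.

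Hosts with several abundant circles mostly reused a splice site. Of 379 host names, 305 had 1 member, 51 had 2 and 23 had 3 or more. Among the 74 hosts with 2 or more, 61 had members sharing a start or an end. Rims1, a scaffold of the presynaptic active zone, and Atrnl1, an attractin-like membrane protein, had 5 each. Anks1b and Ubn2, a subunit of a histone chaperone complex, had 4 each. The 3 circles of Strbp share 1 end, and the 3 circles of Glcci1 share 1 start.

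For Rims1 the share of the host's member reads held by each circle was compared between groups. The circle chr1:22346293-22379540 held 45.2% in control, 40.7% in F, 44.2% in E and 38.3% in RE (means of 3). A circle from an upstream part of the gene, chr1:22533399-22538623, exons 6 to 9, held 12.2 to 13.6% in the control libraries, 2.70 to 6.48% in F, 5.49 to 6.12% in E and 4.10 to 10.6% in RE, so that the control libraries did not overlap with the others. It rests on 111 reads in all. The circle chr1:22373344-22379540 held 15.4 to 27.0% in control and 29.7 to 36.2% in F, without overlap. In E it held 26.7 to 28.6% and in RE 20.5 to 31.4%, both overlapping with control. Shares within a host depend on each other, since one falls when another rises, and none was tested. For Atrnl1 the leading circle held 40.3% in control, 46.0% in F, 50.2% in E and 45.1% in RE, with overlapping libraries. The leading Strbp circle held 66.3 to 72.6% in control, 73.9 to 75.7% in F, 60 to 80% in E and 71.2 to 81.8% in RE, so that control overlapped with E and RE.

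The sum of the abundant circles was set against mRNA and is given without a test. Summed over members, the level was 436, 537 and 450 JPM in control, 392, 373 and 383 in F, 433, 446 and 396 in E and 509, 508 and 467 in RE. All F libraries were below every library of the other groups, and all RE libraries were above those of E and F. The group means were 474 ± 55.1, 383 ± 9.20, 425 ± 25.9 and 495 ± 24.2 (SD, n = 3 each). Since the members were chosen with results of these data known, no p-value is given for their sum. For the JPM of all junction reads of the table, an exact permutation test over the 4 groups gave p = 0.0928. Marker levels also moved with these groups. In F, the summed level of 5 oligodendrocyte markers was 586 to 802 FPKM, against 909 to 1162 in control, 995 to 1110 in E and 709 to 1743 in RE. That of 4 excitatory neuron markers was 913 to 1107 FPKM in F, against 776 to 831 in control, 603 to 809 in E and 842 to 994 in RE. Their part in the level of the sum was not tested. In bulk tissue, fewer cells of a type and less RNA per cell cannot be told apart.

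**Figure D3:**
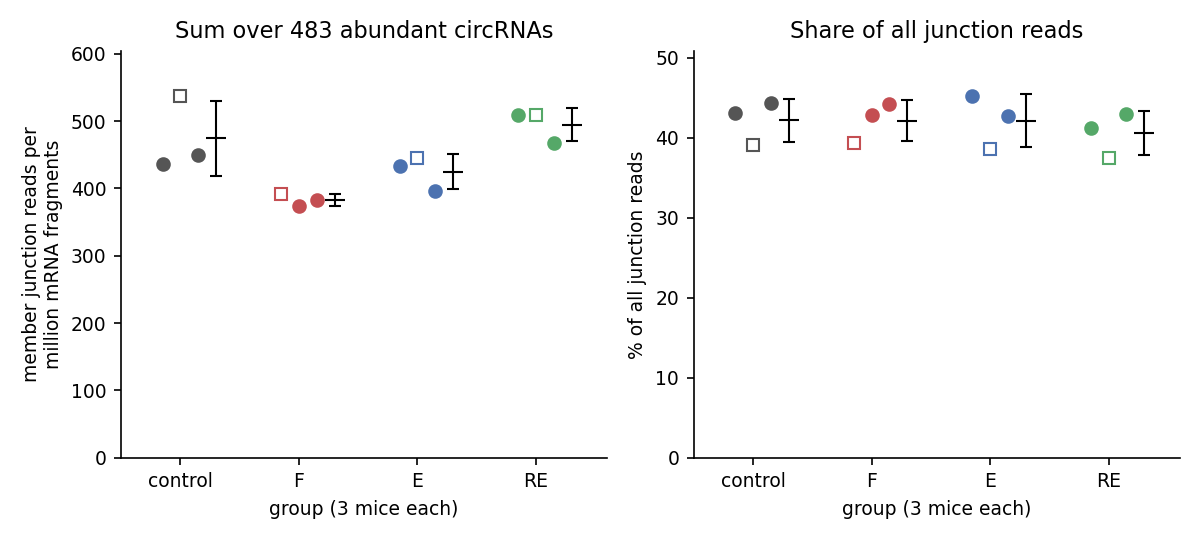
Left, junction reads summed over the 483 circles per 1000000 mRNA fragments (vertical axis, from 0), by group. Right, the same sum as a percentage of all junction reads. Points are libraries, open squares control 2, F 1, E 2 and RE 4, and bars the mean ± SD of 3. On the left F lies lowest and RE and control highest, and on the right the groups overlap between 37.5 and 45.2%.

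As a share of all junction reads, the members did not separate the groups. The share was 37.5 to 39.3% in control 2, F 1, E 2 and RE 4 and 41.2 to 45.2% in the other 8 libraries, with 1 low library in every group. The whole circRNA table moved with the members against mRNA: from F to RE the median log2 fold change on the mRNA fragment scale was 0.41 over all circRNAs tested and 0.36 over members, and from control to F it was -0.36 and -0.31. Scaled by circRNA reads, the same medians were 0.09 and 0.03, and -0.18 and -0.10. The changes of single circles given in this text are on the latter scale unless stated.

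Non-overlap of 3 against 3 libraries on the mRNA fragment scale followed the same shift. RE was above F without overlap for 70 of the 483 circles (14.5%, against 8.27% of all circRNAs tested) and below for 6 (1.24%, against 2.31%). F was above control for 10 (2.07%, against 2.65%) and below for 55 (11.4%, against 7.31%). RE was above E for 42 (8.70%, against 6.73%) and below for 9 (1.86%, against 2.31%). E was above F for 45 (9.32%, against 5.15%) and below for 19 (3.93%, against 4.04%). Against control, E was above for 19 (3.93%, against 2.96%) and below for 28 (5.80%, against 6.48%), and RE was above for 35 (7.25%, against 4.5%) and below for 18 (3.73%, against 4.35%). With the mRNA fragments as library size in edgeR, 0 members were called at an adjusted p under 0.05 in the 6 comparisons (0 of all circRNAs tested for F or E against control and E against F, and 0.0309% for each of the others). At an unadjusted p under 0.05 there were 44 members for F against control (9.11%, against 6.05% of all circRNAs tested), 21 for E against control (4.35%, against 4.84%), 24 for RE against control (4.97%, against 3.83%), 25 for E against F (5.18%, against 5%), 42 for RE against F (8.70%, against 6.48%) and 34 for RE against E (7.04%, against 5.58%).

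No single abundant circle passed the test in any comparison. Of 483 members, 0 were called at an adjusted p under 0.05 by edgeR's quasi-likelihood test in each of the 6 pairwise comparisons and over the 4 groups. The same held for nearly the whole table, with 0 of all circRNAs tested called in the comparisons and 0.0309% over the 4 groups. DESeq2 called 0 members as well. At an unadjusted p under 0.05, edgeR gave 23 members for F against control (4.76%, against 4.20% of all circRNAs tested), 19 for E against control (3.93%, against 4.75%), 25 for RE against control (5.18%, against 3.73%), 21 for E against F (4.35%, against 4.75%), 19 for RE against F (3.93%, against 4.91%) and 26 for RE against E (5.38%, against 5.09%). Over the 4 groups it gave 24 (4.97%, against 3.98%). Adding the study's minimum of 1 for the size of the log2 fold change left 17 members higher and 4 lower in RE than in E (3.39% and 1.51% of all circRNAs tested), and 9 higher and 8 lower in RE than in F (2.81% and 2.01%). It left 8 higher and 13 lower in E than in F (2.04% and 2.72%). Against control it left 6 higher and 14 lower in F (1.36% and 2.75%), 1 higher and 16 lower in E (1.23% and 3.46%) and 7 higher and 14 lower in RE (1.14% and 2.41%). The standard error of a member's log2 fold change had a median of 0.58 to 0.63 over the 6 comparisons. Changes of more than 3 times their own standard error were still not called.

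The members with the smallest p among those whose libraries did not overlap are named as not called. In F, the circle of Mpzl1, a cell surface glycoprotein, had 0, 1 and 1 reads, against 10, 14 and 6 in control (log2 fold change -3.28 ± 0.92, SE, adjusted p = 0.427 in edgeR's test). The circle of Esco1, which acetylates cohesin, had 1, 0 and 3 reads in F against 13, 13 and 7 in control and 4, 14 and 8 in E. The circle of Lrrk2, a large kinase, had 0, 1 and 2 reads in F against 8, 7 and 12 in RE, and 0 in control 2. That of Psd3, an exchange factor for Arf6, had 7, 8 and 11 in F against 4, 2 and 0 in RE. The F libraries stood at the low end for Mpzl1, Esco1 and Lrrk2 and at the high end for Psd3.

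The other names of this kind involve control, E and RE. Pak7 (a p21-activated kinase) had 7, 2 and 1 reads in control against 6, 12 and 12 in E. Axin2 (an inhibitor of Wnt signalling) had 18, 40 and 11 in control against 4, 9 and 7 in RE, and Tmeff2 (a transmembrane protein with follistatin-like domains) had 21, 15 and 4 against 3, 2 and 4. Tmeff1, its paralogue, had 1, 3 and 0 in E against 13, 14 and 4 in RE. For Tmeff2 the lowest control library, at 0.301 JPM, and the highest RE library, at 0.297 JPM, were all but equal, and none of the circles was called.

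Ntng2, which encodes the synaptic adhesion protein netrin-G2, gave the smallest p for RE against E among the members whose libraries did not overlap. Its circle had 11, 6 and 2 reads in control, 6, 7 and 3 in F, 0, 0 and 1 in E and 5, 14 and 5 in RE. The E libraries lay below those of each other group, and the log2 fold change of RE against E was 3.88 ± 1.07 (SE, adjusted p = 0.466 in edgeR's test). The host mRNA was at 11.6, 14.5 and 17.8 FPKM in E and 24.6, 22.1 and 23.2 FPKM in RE, without overlap, a log2 fold change of 0.69 ± 0.15 that was not called either (adjusted p = 0.073, limma). Against the host, the circle changed by 3.40 ± 1.10 (adjusted p = 0.973 in edgeR's test).

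Host mRNAs were measured with smaller error than circles. The median standard error of a host's log2 fold change was 0.12 and the coefficient of variation over the 12 libraries had a median of 11.1%, against 46.9% for circles. With limma on log2(FPKM + 0.1), 0 of 363 hosts were called for F, E or RE against control (0, 0 and 0.0666% of all mRNAs tested), for E or RE against F (0.0814% and 0) or over the 4 groups (0.303%). At an unadjusted p under 0.05 there were 31 hosts for F against control (8.54%, against 7.08% of all mRNAs tested), 14 for E against control (3.86%, against 5.13%), 44 for RE against control (12.1%, against 9.65%), 43 for E against F (11.8%, against 10.8%), 21 for RE against F (5.79%, against 7.03%), 45 for RE against E (12.4%, against 10.4%) and 45 over the 4 groups (12.4%, against 10.5%). In RE against E, 4 hosts were called (0.614% of all mRNAs tested), 3 of them higher (0.192%) and 1 lower (0.422%).

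The 3 hosts that were higher in RE than in E are a pair of transcriptional regulators and an ion channel. Nfix, a nuclear factor I transcription factor, was at 19.7, 20.3 and 26.9 FPKM in E and 45.2, 37.0 and 39.3 in RE, a log2 fold change of 0.87 ± 0.16 (SE, adjusted p = 0.042, limma). Satb1, a chromatin organiser, was at 16.3, 14.3 and 23.9 FPKM in E and 33.5, 31.7 and 35.8 in RE (0.92 ± 0.18, adjusted p = 0.046, limma). Kcnt2, a sodium-activated potassium channel, was at 9.45, 9.20 and 12.4 FPKM in E and 19.2, 20.5 and 14.8 in RE (0.80 ± 0.15, adjusted p = 0.042, limma). For each of the 3 hosts the E and RE libraries did not overlap.

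Robo1, a receptor for the axon guidance cue Slit, was lower in RE. It was at 14.4, 14.5 and 14.7 FPKM in E and 9.39, 9.64 and 10.9 in RE, and its log2 fold change was -0.54 ± 0.10 (SE, adjusted p = 0.043, limma). Each of these calls depends on the libraries entered: with 1 of RE 3, RE 4, RE 5, E 1, E 2, control 1, control 3, F 2 or F 3 left out, 0 hosts were called, and 0 in the 8 libraries left without control 2, F 1, E 2 and RE 4. The direction held in all 17 alternatives for each of the 4 hosts.

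The circles of these hosts pointed in the same direction as their mRNA without passing the test, and host FPKM can include reads from the circles. The Nfix circle had 2, 5 and 3 reads in E and 16, 14 and 11 in RE, a log2 fold change of 1.76 ± 0.64 (SE). The longer Kcnt2 circle had 5, 10 and 1 reads in E and 20, 28 and 7 in RE (1.50 ± 0.55), and the shorter had 2, 6 and 3 against 8, 27 and 8 (1.64 ± 0.63). The Satb1 circle had 11, 21 and 15 reads in E and 17, 45 and 30 in RE (0.68 ± 0.41), and the Robo1 circle 8, 28 and 10 against 6, 9 and 18 (-0.64 ± 0.49). The adjusted p was 0.963 for the Nfix, Satb1 and both Kcnt2 circles and 0.985 for Robo1 in edgeR's test. RE 4 held the most reads of the Satb1 and Kcnt2 circles.

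Relative to the host, the same circles changed by 0.95 ± 0.63 (Nfix), 0.64 ± 0.54 and 0.84 ± 0.63 (longer and shorter Kcnt2), -0.20 ± 0.41 (Satb1) and -0.08 ± 0.48 (Robo1) on the log2 scale (SE). None of these ratios was called, with an adjusted p of 0.974 or higher in edgeR's test.

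Markers of cell types and of other brain regions moved with this comparison. The summed level of 4 excitatory neuron markers was 603 to 809 FPKM in E and 842 to 994 in RE, that of 6 hypothalamic markers 156 to 201 in E and 64.6 to 144 in RE, that of 5 interneuron markers 369 to 377 in E and 312 to 335 in RE, and that of 4 endothelial markers 40.9 to 49.9 in E and 24 to 27.1 in RE. Single markers did not all follow their sum. Gad2, a GABA-synthesising enzyme, was called lower in RE (log2 fold change -0.84, adjusted p = 0.013, limma), while Pvalb and Vip were at 0.74 and 0.66 and Sst at -0.03, and the median over the 5 interneuron markers was -0.03. The endothelial Flt1 (-0.92, adjusted p = 0.036, limma) and Pecam1 (-1.26, adjusted p = 0.044, limma) and the central amygdala marker Nts (-2.48, adjusted p = 0.036, limma) were also called lower. Of the other central amygdala markers, none called, Gpr101 was at -1.88, Tac2 at -0.24, Prkcd at -0.22 and Ppp1r1b at 0.02. The median over the 5 was -0.24. Gad2, Flt1, Pecam1 and Nts were the 4 marker genes called in RE against E. The part of these markers in the host and circle differences was not tested. All 5 of the basolateral amygdala markers and all 5 neuronal markers were above 0.5 FPKM, and so were all 5 central amygdala and the 4 striatal markers found in the table. The hypothalamic neuropeptides Pmch and Hcrt were below it. Levels above this floor still differed widely between libraries of a group. The striatal sum was 36.9 to 263 FPKM in control, 41.7 to 183 in F, 211 to 228 in E and 90.9 to 320 in RE. The central amygdala sum was 122 to 377 FPKM in control, 113 to 260 in F, 256 to 328 in E and 158 to 435 in RE. That of choroid plexus markers was 4.02 to 235 FPKM in control and 4.05 to 48.6 in F.

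The circle-to-host ratio was also tested for all 464 members with a host value, by entering host FPKM as an offset in edgeR. In each of the 6 comparisons and over the 4 groups, 0 members were called (0 of all ratios tested in the comparisons and 0.065% over the 4 groups). At an unadjusted p under 0.05 there were 25 for F against control (5.39%, against 4.68% of all ratios tested), 27 for E against control (5.82%, against 5.46%), 14 for RE against control (3.02%, against 3.12%), 21 for E against F (4.53%, against 4.59%), 18 for RE against F (3.88%, against 4.81%), 24 for RE against E (5.17%, against 4.91%) and 23 over the 4 groups (4.96%, against 3.93%). An alternative with limma on log2 CPM minus log2 host FPKM called 0 as well.

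The log2 fold changes of circles were spread about as widely as their own standard error, and circle and host changes were weakly related. The SD of the log2 fold change over 464 circles was 0.56 to 0.67 in the 6 comparisons, and the median standard error of a single circle was 0.58 to 0.63. For hosts the SD was 0.13 to 0.20 and the median standard error 0.12. The wider spread of the circles therefore does not show that they changed more than their hosts, and r was not corrected for this error. Pearson's r between circle and host change was 0.14 for E against control, 0.18 for RE against F, 0.21 for F against control, 0.25 for E against F, 0.26 for RE against E and 0.31 for RE against control. The comparisons share libraries, as do circle and host, and several circles share a host. Host FPKM can also include reads from a circle's own exons, so the values are descriptive.

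**Figure D4:**
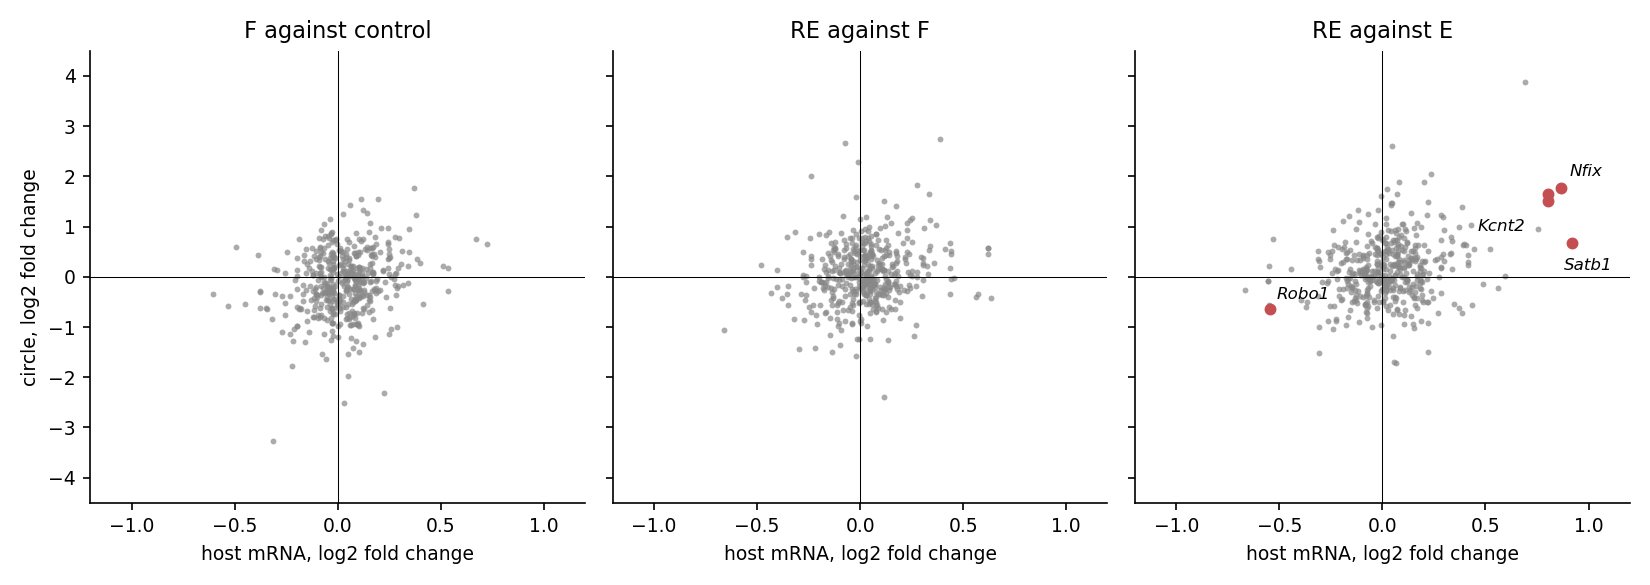
Log2 fold change of each circle (vertical axis) against that of its host mRNA (horizontal axis, a narrower scale) for 464 circles in 3 comparisons. Red points in the RE against E panel are the 5 circles of Nfix, Satb1, Kcnt2 and Robo1. Circles spread over several log2 units and hosts over less than 1 unit to either side, with a median standard error of 0.58 to 0.63 for circles and 0.12 for hosts.

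Genes that make or remove circles did not pass the test. Of a list of 43 factors of back-splicing, editing, export and turnover, 42 were measured, and 0 were called in any comparison by limma. Of all mRNAs tested, 0 to 0.614% were called per comparison. At an unadjusted p under 0.05 there were 1 to 3 of the 42 per comparison, against 5.13 to 10.8% of all mRNAs tested. Among the most abundant were Celf2 at 190 FPKM, Hnrnpl at 126 and Rbfox1 at 109, all regulators of splicing. From F to RE their log2 fold changes were 0.10 ± 0.14, -0.05 ± 0.09 and 0.08 ± 0.18 (SE). The median over the 42 genes was -0.07 from F to RE and 0.04 from control to F. It pools factors that promote back-splicing with factors that oppose it.

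At 85 of the 483 junctions the table also lists a circle with the same coordinates on the other strand, and its reads came from few libraries. Of reads at those junctions, 6.32% were on the opposite strand in F 1 (189 reads), 4.58% in E 2 (131 reads), 1.24% in RE 4 (34 reads) and 0.127% in control 2 (3 reads). In the other 8 libraries there were 0 among 17010 reads, which by counting error alone allows up to 0.0176% at these junctions. All 357 opposite-strand reads lay in control 2, F 1, E 2 and RE 4, so the 85 junctions are listed only through them. The shares therefore do not hold for all members, and the 0 sets no ceiling for opposite-strand reads at other junctions. Circles classed as antisense by the authors had 5041 reads in the other 8 libraries and 4092 in the 4. The 4 libraries are those with the low member share given above. The opposite-strand partner of the Tulp4 circle, which is below the threshold, was the only circRNA called over the 4 groups (adjusted p = 0.0254, edgeR, 0.0309% of those tested), with 21 reads in F 1, 9 in E 2 and 0 in all other libraries. Adding both strands together left 0 members called.

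**Figure D5:**
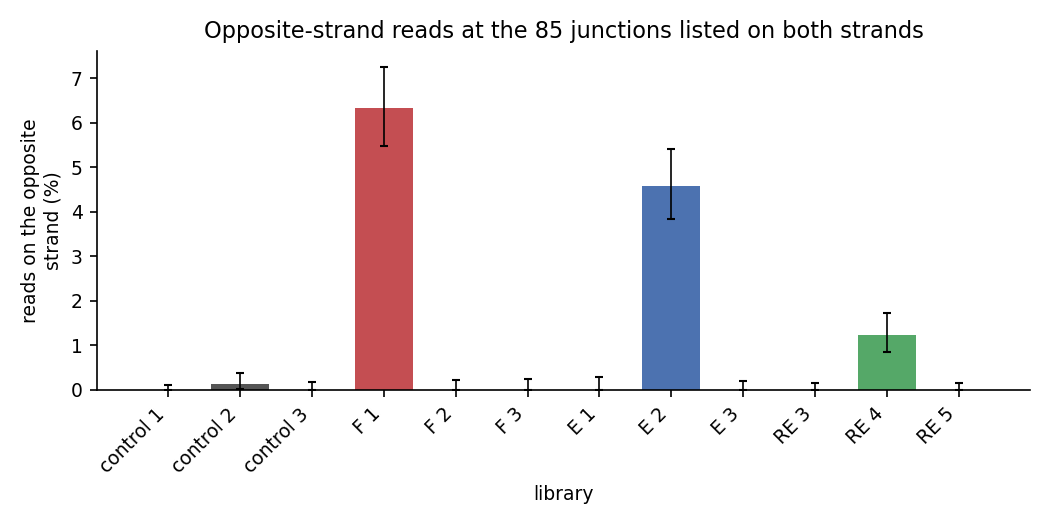
Share of junction reads on the opposite strand (vertical axis, percent) at the 85 junctions listed on both strands, for each library (horizontal axis). Bars are 1 library each and error lines the exact 95% binomial interval, which covers counting error only. F 1, E 2 and RE 4 stand out and 8 libraries are at 0. The junctions are listed on both strands only through reads in control 2, F 1, E 2 and RE 4.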

How the data were processed

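For circRNAs the authors deposited counts of back-splice junction reads per library (cutadapt, STAR 2.5.1.b, DCC 0.4.4, circBase), beside log2 CPM values of their own that were not used. For mRNAs the authors deposited FPKM values (HISAT2 2.0.4 on mm10, cuffdiff 2.2.1) and, per the file headers, a count column already scaled per library, a signal used here only to recover fragment totals for depth. Libraries were rRNA-depleted and directional, read as 150 bp pairs. CASAVA 1.8, BWA and hg19, a human build, appear in the submitters' processing notes, whereas the tables hold mouse coordinates. The deposited lncRNA table was not used here.

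The members and gene lists were chosen with earlier results of these data known. CircRNAs with at least 10 reads (3241) were tested with edgeR 4.0.16 (quasi-likelihood, TMM, all 12 libraries in 1 fit), alone and with log(host FPKM + 0.1) as an offset (3075), and mRNAs with a mean of at least 0.5 FPKM (13517) with limma 3.58.1 on log2(FPKM + 0.1). P-values were two-sided, adjusted over all features tested by Benjamini-Hochberg, and called under 0.05. The mRNA fold changes are on the log2(FPKM + 0.1) scale, which understates changes of low genes. The sum over members was planned with an exact permutation test, whose p is not given for the reason stated. Named circles were the 10 with most reads, those whose circle, host or ratio was called, the 2 per comparison with the smallest p and no overlap, the 5 highest and 5 lowest circle-to-host values, up to 6 hosts with 3 or more members, and the circles beside the threshold. Some genes chosen by this rule are not reported here. DESeq2 1.42.0, other scalings, filters, pseudocounts and sets of libraries were tried as alternatives. The scripts were tested on simulated data. Shares at 1 library carry exact (Clopper-Pearson) 95% intervals, and a count of 0 allows up to 3 reads. Both cover counting error only, since the reads carry no molecular identifiers.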

Additional observations from a re-analysis of the deposited data

Results flagged for a closer look

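Opposite-strand reads at the 85 member junctions listed on both strands exceeded the highest control value (0.127%, control 2) in 3 libraries. The shares were 6.32% in F 1 (exact 95% interval 5.48 to 7.25%), 4.58% in E 2 (3.84 to 5.41%) and 1.24% in RE 4 (0.861 to 1.73%). All 357 opposite-strand reads came from these 3 libraries and control 2, so the junctions were chosen through them. The shares and intervals therefore do not hold for all members. The member counts above leave these reads out, apart from the alternative that adds both strands. Each is 1 library of its group, and the other 2 libraries of F, E and RE were at 0.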

How the results depend on the processing

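For circles and for circle-to-host ratios, every alternative run (other size factors, library sizes, filters, pseudocount, DESeq2 or limma, pairwise fits, the 8 libraries, each library left out, the replicate block) kept 0 members called. The 12 named results of single circles kept their direction and stayed uncalled in all 210 alternatives. Host calls were the exception. The 4 in RE against E became 0 without filter and in the 8 libraries, 2 under quantile normalization, and 0 to 5 when 1 library was left out (5 without control 2). Leaving out 1 library gave 0 to 1 calls in E against F (1 without control 2), 0 to 2 in RE against control (2 without E 3) and 0 to 2 over the 4 groups (2 without control 2 or without E 3). The cause was not tested. The difference in the sum of members from F to RE was 0.37 on the log2 scale, 0.35 to 0.41 with 1 library left out, and -0.056 as a share of junction reads. Deviations of same-numbered libraries had correlations of -0.19 to 0.23 in control, F and E. Differently numbered libraries were not compared, so these values do not settle whether replicate numbers pair the libraries. The block changed no count: it left 0 circles, 0 ratios and 0 hosts called in the 3 comparisons it could enter, RE sharing only 1 number with the others. Depth limits single circles, whose median is 93 reads over 12 libraries.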
